A study of Mus musculus with 6 samples.

Results

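Adhesion ligands, Cd44 and syndecans were followed here as 9 genes: Icam1, Icam2, Vcam1, Selplg, Cd44, Sdc3, Sdc4, Pecam1 and F11r, taken by gene symbol from the 24394 symbols of the deposited transcript tables. All 9 genes were listed in each library, and 7 of them were among the 10393 genes with a mean of 1 FPKM or more, which were tested. FPKM are fragments per kilobase of transcript per 1000000 fragments. Pecam1 and F11r stayed below that level. The RNA came from bone marrow-derived macrophages (BMMs) of C57BL/6 mice at postnatal day 28, grown from isolated marrow monocytes for 7 days in M-CSF (macrophage colony-stimulating factor, 50 ng/ml), which all groups received. The 3 control libraries came from macrophages cultured alone, and the 3 stimulated libraries from macrophages given 5 cartilage fragments per cell for 24 h, the fragments being crushed from the femoral head cartilage of such mice. Neither group carried a transgene or a deletion. Neither the labels nor the methods say whether the libraries of a group came from separate animals or cultures, so the p-values measure only the spread between these libraries, which may be technical. The question asked of the design is which adhesion genes of macrophages differ after contact with cartilage fragments.

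Intercellular adhesion molecules (Icam1, Icam2) and Vcam1 are immunoglobulin-type surface proteins that leukocyte integrins bind, and Icam1 is a well known target of NF-kB signalling in inflamed tissue. Cd44 is the main cell-surface receptor for hyaluronan, a glycan of cartilage matrix, and syndecans such as Sdc3 and Sdc4 are transmembrane proteoglycans whose heparan sulphate chains bind matrix proteins and growth factors. Selplg encodes PSGL-1, the leukocyte ligand of selectins, while Pecam1 and F11r (JAM-A) sit at contacts between endothelial or epithelial cells and are also found on leukocytes.

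Coverage and FPKM together gave 743000 to 776000 fragments for the control libraries and 699000 to 754000 for the stimulated ones, so a gene at 1 FPKM rests on a few fragments. These inferred numbers are far below the sequencing depth that the methods name, for a reason that was not tested, and every fragment count, interval on fragments and limit for a value of 0 below rests on them. The methods name male mice, whereas Xist was present in all 6 libraries at 19.8 to 23.6 FPKM and 4 Y-linked genes were at 0 in all of them. The 6 macrophage markers were all tested, with a summed level of 2506 to 2621 FPKM in control and 2829 to 2996 FPKM in stimulated libraries, without overlap. Of these 6 markers 1 passed from FPKM and 2 from the scaled fragments described below, and their part in the results was not tested. Of the 5 fibroblast markers 4 were tested, and their sum was 155 to 169 FPKM in control libraries and 103 to 119 FPKM in stimulated ones, without overlap, and 2 of them passed from scaled fragments. Fibroblasts also express several of the 9 genes, and the part of this shift in the results below was not tested. Among the 6 neutrophil and granulocyte precursor markers, 5 were listed and 3 tested, at 733 to 839 against 683 to 990 FPKM, mostly from S100a8 and S100a9. The 6 endothelial markers summed to 7.22 to 11.1 against 7.29 to 8.05 FPKM, carried by Vwf, with Tek and Emcn at 0 in every library. The 6 chondrocyte markers summed to 1.54 to 4.22 against 1.18 to 2.82 FPKM, with none tested and Col9a1 at 0. All 5 lymphocyte markers were at 0. The 4 platelet markers reached at most 2.25 FPKM and the 4 dendritic cell markers at most 1.55 FPKM.

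The promoters of Icam1, Sdc4 and Cd44 are shown because these are the 3 tested genes whose control and stimulated libraries did not overlap. Each sequence is the 250 bases before the RefSeq start of the gene (build GRCm38.p6), written in the direction of transcription. Of the 9 genes, 5 had a RefSeq promoter here, the others being Sdc3 and F11r. Capitals mark an NF-kB form in Icam1 and in Sdc4 and, as the later run of capitals in Icam1, the STAT form TTCNNNGAA.
Icam1, chr9:21015690-21015939, plus strand: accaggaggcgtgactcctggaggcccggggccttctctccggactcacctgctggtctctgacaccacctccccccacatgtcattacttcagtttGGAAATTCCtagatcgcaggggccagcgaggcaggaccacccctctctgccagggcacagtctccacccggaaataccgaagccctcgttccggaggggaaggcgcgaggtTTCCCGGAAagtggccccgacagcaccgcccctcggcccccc
Sdc4, chr2:164443189-164443438, minus strand: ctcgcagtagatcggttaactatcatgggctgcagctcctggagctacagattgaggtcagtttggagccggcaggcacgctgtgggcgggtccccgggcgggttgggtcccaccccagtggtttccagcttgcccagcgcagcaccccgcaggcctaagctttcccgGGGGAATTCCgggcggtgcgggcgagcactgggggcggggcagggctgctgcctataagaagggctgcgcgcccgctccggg
Cd44, chr2:102901666-102901915, minus strand: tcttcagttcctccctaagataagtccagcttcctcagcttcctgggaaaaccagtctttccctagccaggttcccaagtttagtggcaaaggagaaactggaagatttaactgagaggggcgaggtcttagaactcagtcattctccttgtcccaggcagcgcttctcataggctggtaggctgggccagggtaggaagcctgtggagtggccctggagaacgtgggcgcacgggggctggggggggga
The Icam1 promoter held GGAANTTCC at 153 to 145 bases before the start, and 0.813% of the 32851 promoters of the same length held that form on either strand. The Sdc4 promoter held the NF-kB consensus of 10 bases at 82 to 73 bases before the start, a form present in 3.90% of promoters. TTCNNNGAA stood at 42 to 34 bases before the Icam1 start and occurred in 7.02% of promoters. The sources place the Icam1 start differently. The window ends at 21015939, the listed transcript starts at 21015960 and exon 1 in GENCODE M21 at 21015985. A transcript assembled in stimulated replicate 1, described below, starts at 21015888, so its span includes the TTCNNNGAA match. The Cd44 window matched none of the 7 forms searched on both strands, which also included TGANTCA for AP-1 (6.75% of promoters, found in F11r), TTGCNNAA for C/EBP (9.56%), TATAAA (12.4%) and GGGCGG for Sp1 (32.7%, found in Icam1, Sdc4, Sdc3 and F11r). The first 2 forms can overlap each other, and a match only says that these letters stand in the window. The forms were chosen after these promoters had been seen, so the shares of all promoters are no chance rates for the matches.

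On the FPKM scale, 0 of the 7 tested genes passed an adjusted p of 0.05 with limma, against 38 of 10393 genes (0.366%), with 0.308% higher and 0.0577% lower. At an unadjusted p under 0.05 there were 3 of the 7, Icam1, Sdc4 and Cd44, against 9.19% of all tested genes. The same 3 had all stimulated libraries above all control libraries, which held for 9.04% of tested genes, while 6.89% had all stimulated libraries below the controls. An exact permutation test of a single gene cannot go below 0.1 with 3 libraries against 3. A second scale, called scaled fragments here, divides the fragments of a gene by all fragments of its library, per 1000000 fragments. On that scale Icam1 and Sdc4 passed, 2 of 7, against 141 of 10393 genes (1.36%) that passed as higher. The 9 genes were chosen with earlier results of these data known, so these shares are no chance rates for them. The study's own comparison, made with Cuffdiff, listed Icam1, Sdc4 and Cd44 as upregulated at a q-value under 0.05. The median log2 fold change of the 7 genes was 0.22 on both scales, against 0.0037 for FPKM and 0.0010 for scaled fragments over all tested genes. In bulk RNA, a change in the share of cells of a type and a change in RNA per cell cannot be told apart.

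**Figure D1:**
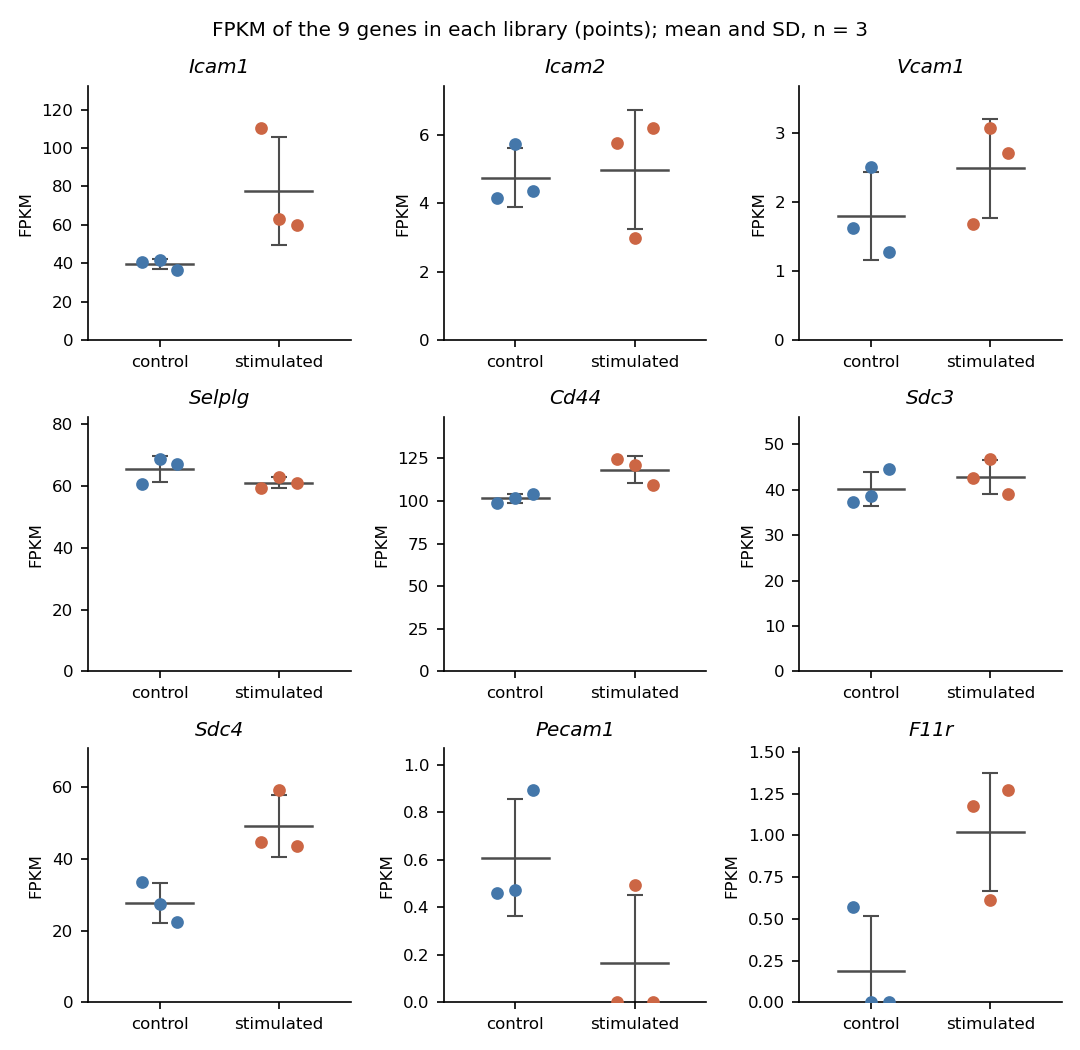
FPKM of the 9 genes (vertical axes, each from 0) in the 3 control and 3 stimulated libraries, with points for libraries, horizontal lines for means and bars for SD. Icam1, Cd44 and Sdc4 show no overlap between groups at levels above 20 FPKM, while Pecam1 and F11r rest on 2 fragments or fewer in each library.

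Icam1 (chromosome 9, 21015960 to 21028796, mm10) encodes the ligand of the integrins LFA-1 and Mac-1. Its level was 40.7, 41.8 and 36.7 FPKM in control replicates 1 to 3, and 110.2, 63.0 and 60.1 FPKM in stimulated replicates 1 to 3. The groups did not overlap, and stimulated replicate 1 stood far above the other 5 libraries. The means were 39.7 ± 2.70 and 77.8 ± 28.1 FPKM (SD, n = 3), with a log2 fold change of 0.91 (SE 0.229, 95% interval 0.38 to 1.44, limma adjusted p = 0.209).

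In stimulated replicate 1 the level of Icam1 was spread over several listed transcripts. The single reference transcript of Icam1 carried 37.6 FPKM there, within the range of the control libraries. The other 65.9% of its FPKM lay on 2 shorter transcripts that Cufflinks had assembled in that library alone. The first piece (chromosome 9, 21015888 to 21026632, 21.1 FPKM) had a spliced length of 1111 bases, which equals exons 1 to 4 joined with the extra bases at its ends. The second piece (21027379 to 21028809, 51.5 FPKM) had 1341 bases, which equals exons 6 and 7 joined, with extra bases at its start and an end 8 bases short of that of exon 7. Exon 5 (21027078 to 21027335), an exon of the transcript in GENCODE M21, was in neither piece. The first piece ended 33 bases past exon 4, in the intron before exon 5. The second began 53 bases before exon 6, in the intron after exon 5, so neither piece joins exon 4 to exon 6. The reference transcript, which includes exon 5, held 66 fragments in that library. Whether the pieces are separate transcripts or come from a break in assembly was not tested.

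**Figure D2:**
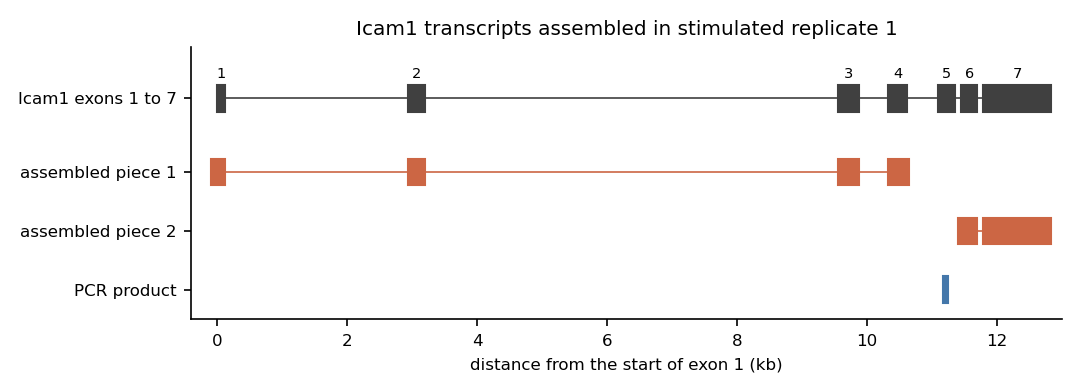
Exons of Icam1 (dark boxes, numbered), the 2 transcripts assembled in stimulated replicate 1 (orange) and the product of the study's Icam1 PCR primers (blue), along the distance in kb from the start of exon 1. The first piece covers exons 1 to 4, the second exons 6 and 7, and the PCR product lies inside exon 5.

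The study also measured Icam1 by qRT-PCR and reported it significantly higher with cartilage fragments, in BMMs and in peritoneal macrophages. The primers are shown because they fall in the exon that both assembled pieces lack.
Icam1 forward primer: gtgggtcgaaggtggttctt
Icam1 reverse primer: cagtgtgaattggacctgcg
The forward primer matched bases 1063 to 1082 of the transcript and the reverse primer, as its complement, bases 1114 to 1133, a product of 71 bp within exon 5 (chromosome 9, 21027159 to 21027229).

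FPKM divide by the length of each transcript, so a fragment on a short piece counts for more than one on the whole transcript. Counted as fragments, the 2 pieces held 58 of 124 fragments of Icam1 in that library, or 46.9%. The fragments of Icam1 numbered 74, 74 and 63 in control replicates 1 to 3 and 124, 106 and 97 in stimulated replicates 1 to 3. As scaled fragments these were 101, 103 and 90.8 against 174, 155 and 149, so that stimulated replicate 1 was the highest library but stood near the other stimulated ones. The log2 fold change on this scale was 0.70 (SE 0.129, 95% interval 0.43 to 0.96, limma adjusted p = 0.0018), and the ratio of summed fragments was 1.62 (exact 95% interval 1.36 to 1.94, counting error only). It passed without each library in turn, with values of 0.63 to 0.74 (limma adjusted p from 0.0056 to 0.033). From the reference transcript alone the groups overlapped, at 39.7 ± 2.70 against 53.6 ± 13.9 FPKM (SD, n = 3), with a log2 fold change of 0.40 and a limma adjusted p of 0.797.

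**Figure D3:**
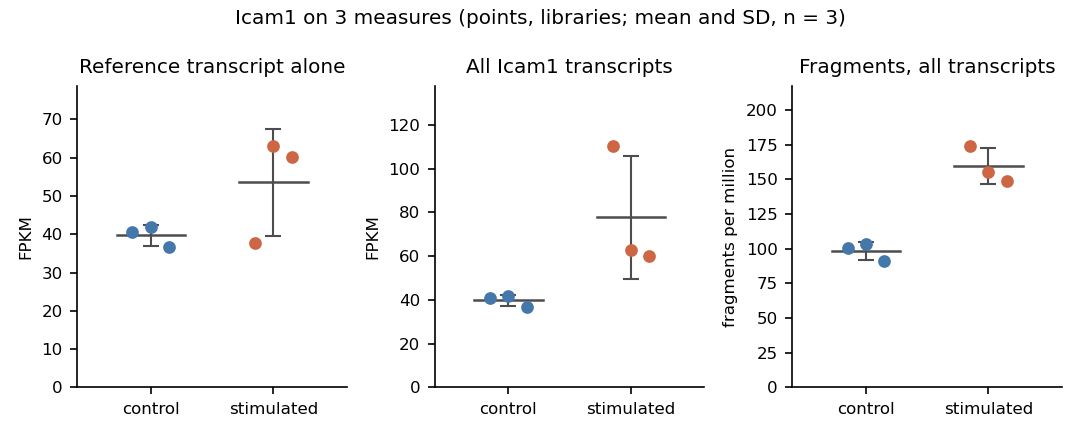
Icam1 in the 6 libraries as FPKM of the reference transcript alone, FPKM of all its transcripts, and scaled fragments (vertical axes from 0), with points for libraries and bars for SD around the mean. Stimulated replicate 1 moves from 37.6 FPKM, inside the control range, to 110.2 FPKM, and to 174 scaled fragments, near the other stimulated libraries.

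Icam2 (chromosome 11, 106377656 to 106382641), a further ligand of LFA-1, was low, at 4.16, 5.73 and 4.35 FPKM in control replicates 1 to 3 and 5.75, 3.00 and 6.18 FPKM in stimulated replicates 1 to 3. The groups overlapped, each with 10 fragments in all. The log2 fold change was 0.015 (95% interval -0.79 to 0.82, limma adjusted p = 0.997). Vcam1 (chromosome 3, 116110020 to 116129688), the ligand of the integrin VLA-4, was at 1.63, 2.51 and 1.28 FPKM in control replicates 1 to 3 and 1.68, 3.07 and 2.72 FPKM in stimulated replicates 1 to 3. It rested on 13 and 17 fragments, with a log2 fold change of 0.45 (SE 0.488, 95% interval -0.67 to 1.58, limma adjusted p = 0.814). No difference in Vcam1 or Icam2 was detected, and these intervals leave room for changes in either direction.

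Selplg (chromosome 5, 113817798 to 113830501) stood at 60.7, 68.6 and 67.2 FPKM in control replicates 1 to 3 and at 59.3, 63.0 and 60.9 FPKM in stimulated replicates 1 to 3. The groups overlapped, and the log2 fold change was -0.10 (SE 0.110, 95% interval -0.35 to 0.15, limma adjusted p = 0.818). This direction depended on assembled transcripts, which held 38.6% of its FPKM in control replicate 1 and 34.8% in control replicate 3. The second of these spans 113817798 to 113820305 with a length of 2508 bases, the whole of its span, so it has no intron. Without them control replicates 1 to 3 were at 37.3, 68.6 and 43.8 FPKM, and the log2 fold change was 0.34 (limma adjusted p = 0.797).

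Cd44 (chromosome 2, 102811142 to 102901665), the hyaluronan receptor, had the highest mean of the 9 genes in both groups. Control replicates 1 to 3 were at 98.7, 102 and 104 FPKM and stimulated replicates 1 to 3 at 124, 121 and 109 FPKM. The groups did not overlap, but stimulated replicate 3 lay closer to the controls than to the other stimulated libraries. The means were 102 ± 2.74 and 118 ± 7.93 FPKM (SD, n = 3), with a log2 fold change of 0.22 (SE 0.0932, 95% interval 0.0027 to 0.43), which did not pass with limma (adjusted p = 0.538, and 0.158 from scaled fragments). The summed fragments were 971 and 1080, a ratio of 1.17 per library fragment (exact 95% interval 1.07 to 1.27, counting error only). This interval leaves out the further spread between libraries of a group, so it is too narrow for a comparison of the groups. All of its FPKM lay on the shortest of 6 reference transcripts, of 4408 bases, and the other 5 were listed at 0 in all 6 libraries.

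Sdc4 (chromosome 2, 164424247 to 164443188), known as a partner of integrins at focal adhesions, was at 33.4, 27.3 and 22.3 FPKM in control replicates 1 to 3 and at 44.7, 59.0 and 43.6 FPKM in stimulated replicates 1 to 3. The groups did not overlap, and the gap between them was narrower than the spread of the libraries within either group. The means were 27.7 ± 5.58 and 49.1 ± 8.60 FPKM (SD, n = 3), with a log2 fold change of 0.83 (SE 0.198, 95% interval 0.37 to 1.29, limma adjusted p = 0.184). Sdc4 had no assembled transcript in any library, and its log2 fold change from scaled fragments was 0.83 as well (SE 0.171, 95% interval 0.48 to 1.18), where it passed with limma (adjusted p = 0.00597). Without stimulated replicate 2, its highest library, it was 0.69 and no longer passed with limma (adjusted p = 0.0928). It passed without each of the other 5 libraries, but not where the assembled transcripts of all genes were left out of the fit, with the same log2 fold change of 0.83 (limma adjusted p = 0.467). The summed fragments were 142 and 240, a ratio of 1.77 (exact 95% interval 1.43 to 2.19, counting error only).

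Sdc3 (chromosome 4, 130792537 to 130826318), the syndecan best known from the nervous system, was at 37.4, 38.7 and 44.5 FPKM in control replicates 1 to 3 and 42.5, 46.6 and 39.1 FPKM in stimulated replicates 1 to 3. The groups overlapped, with a log2 fold change of 0.09 (SE 0.140, 95% interval -0.23 to 0.41, limma adjusted p = 0.877). The difference between the changes of Sdc4 and Sdc3 was not tested.

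Pecam1 (chromosome 11, 106654213 to 106715281), an adhesion molecule of endothelial junctions, was at 0.460, 0.473 and 0.892 FPKM in control replicates 1 to 3, on 4 fragments in all. In stimulated replicates 1 to 3 it was at 0, 0.495 and 0 FPKM, on 1 fragment, and the groups overlapped. A count of 0 allows up to 1.38 FPKM in stimulated replicate 1 and 1.49 FPKM in stimulated replicate 3, taking 3 fragments per library as the limit. F11r (chromosome 1, 171437561 to 171464593), a junctional adhesion molecule that also binds LFA-1, was at 0.571, 0 and 0 FPKM in control replicates 1 to 3 and at 1.18, 0.615 and 1.27 FPKM in stimulated replicates 1 to 3. The groups did not overlap, but they rested on 1 and 5 fragments, with a ratio of 5.24 (exact 95% interval 0.586 to 248, counting error only). The control values of 0 allow up to 1.75 and 1.78 FPKM, above each stimulated value.

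**Figure D4:**
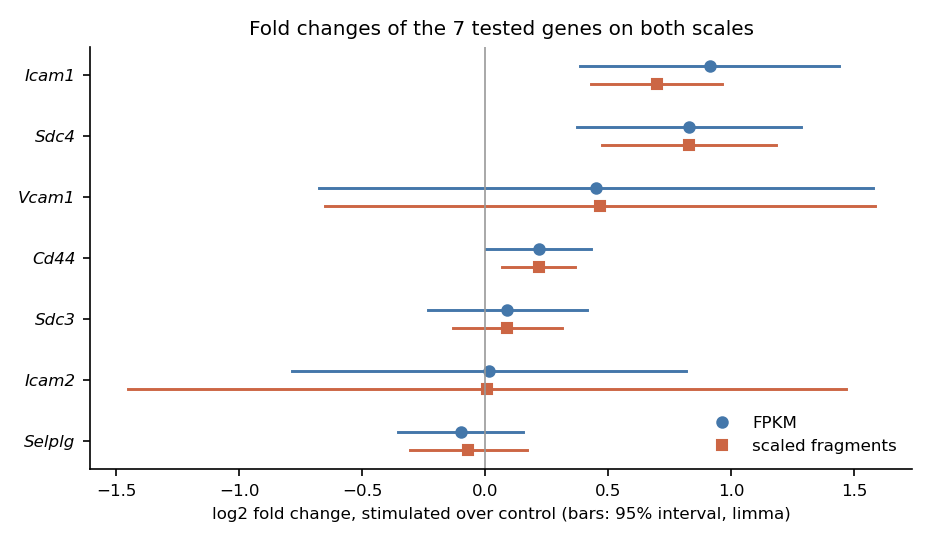
Log2 fold change of stimulated over control (horizontal axis) for the 7 tested genes, with 95% intervals from limma, for FPKM (blue circles) and scaled fragments (orange squares). Icam1 and Sdc4 lie highest and Sdc4 has the same value of 0.83 on both scales, while the intervals of Vcam1 and Icam2 are the widest.

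Since FPKM are set per length, the levels of the 9 genes can be ordered. In control macrophages the order by mean FPKM was Cd44, Selplg, Sdc3, Icam1, Sdc4, Icam2, Vcam1, Pecam1 and F11r. The neighbours Sdc3 and Icam1 overlapped, as did Pecam1 and F11r, and the libraries of the other neighbours were apart. In stimulated macrophages the order was Cd44, Icam1, Selplg, Sdc4, Sdc3, Icam2, Vcam1, F11r and Pecam1. There the libraries overlapped between Cd44 and Icam1, Icam1 and Selplg, Sdc4 and Sdc3, and Icam2 and Vcam1. The place of Icam1 before Selplg rests on the assembled pieces, since its reference transcript alone had a mean of 53.6 FPKM against 61.1 FPKM for Selplg. Among the tested genes, the control level of Cd44 stood at percentile 93.4, Icam1 at 81.7, Sdc4 at 74.9 and Vcam1 at 8.03.

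Among 5523 genes at a mean level of 10 FPKM or more, those most like Icam1 over the 6 libraries by Pearson r of log2 FPKM were Gpx4 (r = 0.993), Pfn1 (0.993), Ube2j1 (0.986), Usp4 (0.975) and Tctex1d2 (0.974). On scaled fragments, a search added after the values were seen, the 5 were Pilra (r = 0.997), Slc31a2 (0.995), Pnpla8 (0.994), Cyfip1 (0.992) and Vasp (0.991), and none was shared with the first 5. Of the other adhesion genes, Cd44 had an r with Icam1 of 0.894 from FPKM and 0.906 from scaled fragments, where 1.83% and 3.37% of genes had a higher one. Sdc4 had an r of 0.720 and 0.889, with 9.27% and 3.97% of genes above it. Sdc3 was lower, at 0.275 and 0.303, and Selplg was negative, at -0.686 and -0.440. These values describe 6 libraries in 2 groups that share depth and scaling.

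The partners of these genes were taken as 8 lists of 101 genes, 77 of them tested. From FPKM 1 partner passed as higher with limma and none as lower, and from scaled fragments 11 passed as higher and 1 as lower, against 1.36% and 0.712% of all tested genes. By FPKM, 20 of the 77 were higher without overlap and 6 lower, against 9.04% and 6.89% of all tested genes. The 20 were 8 NF-kB genes, 5 integrins, 3 syndecan and heparan sulphate genes, 3 sheddases or Timps and 1 other immunoglobulin molecule. The 6 were 2 syndecan and heparan sulphate genes, 2 sheddases or Timps, 1 selectin-list gene and 1 other immunoglobulin molecule. The lists were chosen with earlier results of these data known, so shares of all tested genes are no chance rates for them.

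The integrin receptors of Icam and Vcam ligands had 8 of 9 genes tested. All stimulated libraries were above all controls for 5 of the 8, against 9.04% of all tested genes. From scaled fragments 2 rose, Itgam, the alpha chain of Mac-1 (354 ± 7.98 to 425 ± 18.5 FPKM, SD, n = 3; log2 fold change 0.26, limma adjusted p = 0.000586), and Itgb2, the beta chain of LFA-1 and Mac-1 (730 to 827 FPKM, 0.16, adjusted p = 0.0197). Itgam passed without each library in turn, and Itgb2 only without control or stimulated replicate 3. Neither passed where scaled fragments came from reference transcripts only. The fold changes and p-values of Itgam and Itgb2 are those of scaled fragments. From FPKM neither passed with limma (adjusted p = 0.182 and 0.253). Itgal, the alpha chain of LFA-1, was at 153 and 174 FPKM and did not pass. The largest rise and fall of the list were those of Itgad (FPKM log2 fold change 0.58) and Itgb7 (-0.39), and neither passed. Itgam is also one of the macrophage markers.

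For hyaluronan and Cd44 partners, 8 of 15 genes were tested and none passed on either scale. The list had no gene without overlap. Its largest log2 fold changes of FPKM were 0.20 for Hyal2, a hyaluronidase, and -0.36 for Stab1, a scavenger receptor. The hyaluronan synthases Has1 and Has3 were at 0 in all libraries.

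Of the syndecans and heparan sulphate genes, 20 of 23 were tested and none passed. Ext1, an enzyme of heparan sulphate chain growth, had the largest rise (FPKM log2 fold change 0.57) and B3galt6, an enzyme of the linker that carries the chain, the largest fall (-1.07). Sdc1, a further syndecan at these levels, went from 25.5 to 37.1 FPKM without overlap (log2 fold change 0.53), and missed the threshold with limma (adjusted p = 0.345 from FPKM and 0.0778 from scaled fragments). Sdc1 lies outside the naming rule and was chosen after its values were seen. The study's own comparison with Cuffdiff listed it as upregulated.

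Among selectins and the enzymes that modify PSGL-1, 9 of 13 genes were tested and none passed, with extremes at Tpst2 (0.29), a tyrosine sulphotransferase, and Fut4 (-0.45), a fucosyltransferase. The selectins Selp and Sele were at 0 in all libraries. Of the junction partners 5 of 11 were tested and none passed, and the largest fall was that of Cd99l2 (-0.05). Of the other immunoglobulin adhesion molecules 4 of 7 were tested and none passed, with extremes at Sirpa (0.07) and Mcam (-1.25). These values are log2 fold changes of FPKM. In the same list Alcam went from 40.1 to 30.5 FPKM without overlap (log2 fold change -0.40). It missed the threshold with limma (adjusted p = 0.423 from FPKM and 0.0640 from scaled fragments). The study's own comparison with Cuffdiff listed Alcam as downregulated. Alcam was chosen after its values were seen.

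Sheddases and Timps cleave, or protect from cleavage, several of these surface proteins, and all 9 were tested. Mmp14, a membrane-bound matrix metalloproteinase that cleaves Cd44, was the one partner that passed from FPKM, at 67.3 FPKM in control and 141 FPKM in stimulated macrophages (log2 fold change 1.06, SE 0.140, limma adjusted p = 0.0277). It kept its call without control or stimulated replicate 3 and lost it without any other library. From scaled fragments its log2 fold change was 1.18 with a larger SE of 0.333, and it did not pass with limma (adjusted p = 0.324). The study's own comparison with Cuffdiff listed Mmp14 as upregulated. By qRT-PCR the study reported it significantly higher in BMMs and in peritoneal macrophages. From scaled fragments Mmp9, a secreted gelatinase, rose with the largest value of the list (9.93 to 25.6 FPKM, log2 fold change 1.45, limma adjusted p = 0.00597). Adam17, which sheds Icam1, Vcam1 and Tnf, rose as well (60.9 to 81.9 FPKM, 0.43, adjusted p = 0.00597), and Adam8 fell (457 to 390 FPKM, -0.23, adjusted p = 0.0108). Adam17 did not pass without stimulated replicate 1, Mmp9 did not pass without control replicate 2, and Adam8 did not pass without any of these libraries or stimulated replicate 2. None of the 3 passed from scaled fragments of reference transcripts only. The fold changes and p-values of these 3 are those of scaled fragments. From FPKM none of them passed with limma (adjusted p = 0.154 for Mmp9, 0.242 for Adam17 and 0.268 for Adam8). The study's comparison listed Mmp9 and Adam17 as upregulated and did not list Adam8. Timp3, an inhibitor of Adam17, had the largest fall of the list by FPKM (-0.27) and did not pass.

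The list of NF-kB activation and feedback genes had all 14 genes tested, 8 without overlap and higher (9.04% of all tested genes), none without overlap and lower (6.89%), and a median log2 fold change of 0.50 by FPKM. From scaled fragments 7 rose (1.36% of all tested genes) and none fell (0.712%), while from FPKM none passed. The list was chosen with earlier results of these data known, so these shares are no chance rates for it. Without a library in turn, 3 (without stimulated replicate 1) to 6 of the list passed from scaled fragments, Tnf and Tnfaip3 each time, and without any assembled transcript none passed. Among the 7 was Tnf, an inflammatory cytokine, at 13.2 and 47.8 FPKM. Its log2 fold change was 1.70 from scaled fragments (limma adjusted p = 0.000198) and 1.76 from FPKM (limma adjusted p = 0.0818). The others, with values from scaled fragments, were the inhibitors Nfkbie (0.99) and Tnfaip3 (0.86), the regulators Bcl3 (0.88), Birc3 (0.77) and Nfkb2 (0.61), and Tnfaip2 (0.25). Of the 7, the study's Cuffdiff comparison listed Tnf, Bcl3, Birc3 and Tnfaip2 as upregulated, and its qRT-PCR reported Tnf significantly higher. Rela, a transactivating subunit, was at 35.2 and 36.1 FPKM and did not pass. The other such subunits, Relb (30.7 and 40.4 FPKM, without overlap) and Rel (6.18 and 6.84 FPKM, with overlap), did not pass either. Nfkbib had the largest fall by FPKM, -0.25, and did not pass.

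**Figure D5:**
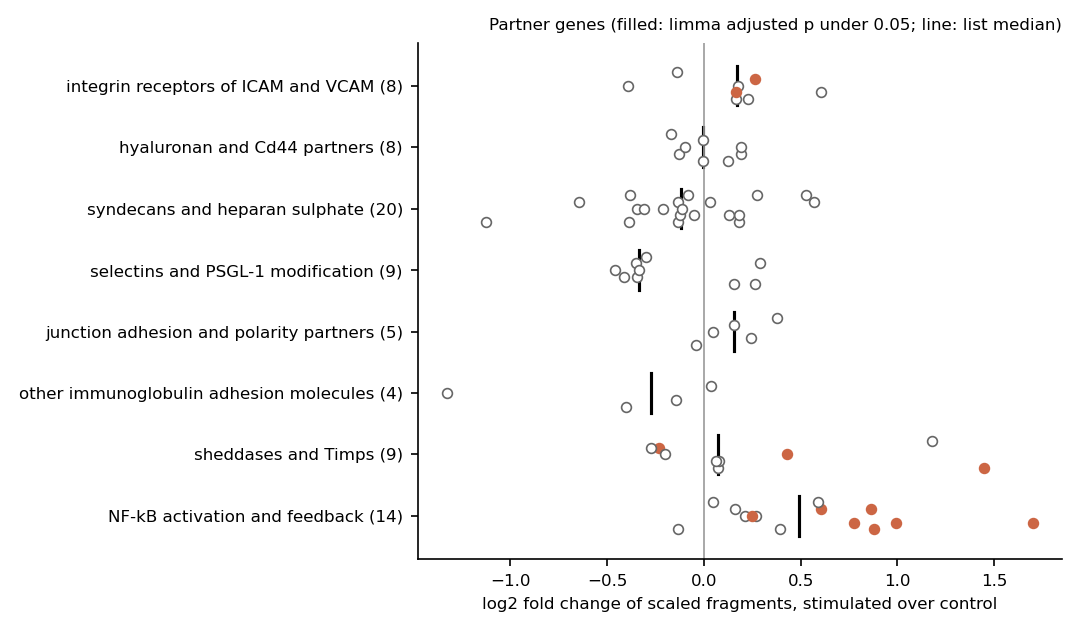
Log2 fold change of scaled fragments, stimulated over control (horizontal axis), for the 77 tested partner genes in 8 lists (tested genes in parentheses), with vertical lines for list medians and filled points for genes that passed with limma. The NF-kB list holds 7 filled points, all above 0, and the hyaluronan list has its median near 0.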

How the data were processed

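RNA-seq of 6 libraries, 3 control and 3 stimulated, was used, grouped by the labels. The authors aligned 100-bp paired-end reads to mm10 with TopHat and Bowtie and deposited, per library, Cufflinks FPKM per reference or assembled transcript, with the coverage beside it. Versions are not given in the sources used here, and whether TMM was applied cannot be told from the values. FPKM were summed per symbol, with assembled transcripts joined through the Cufflinks gene where it held a single symbol. Fragments were estimated from the deposited coverage, length and read length, with a length offset per library. The offset was the one that put most low values near whole numbers. With it 94.4% to 95.3% lay within 0.1 of one, which is therefore no independent check. The intervals on fragments cover counting error only. Libraries of the same group differed by more than that error alone would give, with a mean chi-square per gene of 1.45 to 1.60 between pairs. Genes at a mean of 1 FPKM or more were compared on log2(FPKM + 0.1) in limma 3.58.1 under R 4.3.3 (lmFit, then robust eBayes with a trend). Tests were two-sided, p-values were adjusted by Benjamini-Hochberg over all tested genes, and the threshold was 0.05. Fold changes are on that scale, which understates changes of low genes. Of the tested genes, 868 were listed at 0 in at least 1 library. Tables and figures were made in Python 3.11.15 (scipy 1.17.1, pandas 2.3.3, matplotlib 3.10.9). The procedure was also run on simulated fragments. These held no assembled transcripts, so that run cannot speak to differences between FPKM and scaled fragments.

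The 9 genes, the partner lists and the alternatives were chosen with earlier results of these data known, and the promoter forms after the promoters had been seen. The rule for names took the 9 genes, partners past the threshold on either scale, the largest rise and fall of each list, and the 5 genes most like Icam1. Itgal, Has1, Has3, Selp, Sele, Rela, Relb, Rel, Sdc1 and Alcam were added after their values were seen. Marker genes entered as sums, and 1 gene that the rule would name is not reported here. Promoters and exons came from RefSeq and GENCODE M21 on the same assembly as mm10, and exact intervals were computed on fragments. Alternatives changed the pseudocount, filter, scaling, moderation, weights, block, transcripts or libraries.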

Additional observations from a re-analysis of the deposited data

How the results depend on the processing

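No alternative on the FPKM scale made any of the 9 genes pass. Over 16 such settings, leaving aside the replicate block, reference transcripts only and transcript lines kept apart, the log2 fold change of Icam1 lay between 0.63 and 1.07 (limma adjusted p from 0.153 to 0.509), that of Sdc4 between 0.68 and 0.98 (0.138 to 0.485) and that of Cd44 between 0.17 and 0.27 (0.466 to 0.705). From reference transcripts only and with lines kept apart, Icam1 was at 0.40 (0.797 and 0.808), Sdc4 at 0.83 (0.450 and 0.483) and Cd44 at 0.22 (0.761 and 0.805). Icam2 changed sign, to -0.021 with equal totals, -0.0053 with quantiles and as low as -0.17 without a library (-0.071, -0.040, -0.12 and -0.17), and with scaled fragments to -0.073, -0.044, -0.12 and -0.18 without a library. Selplg changed sign to 0.34 with reference transcripts only, with transcript lines kept apart and with scaled fragments of reference transcripts (0.34).

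Against 38 genes, 18 passed without trend and robust moderation, 18 with the replicate block, 19 from reference transcripts only, 10 with transcript lines apart, and 9 to 30 without a library, fewest without stimulated replicate 1. The partner count of 1 became 0 under these first 4 settings, and 0 to 2 without a library, being 0 without any of control replicates 1 and 2 or stimulated replicates 1 and 2. Scaled fragments gave 215 genes (141 higher, 74 lower), 2 of the 9 genes and 12 partners. The following were added after the data were seen. Without control replicates 1, 2 and 3 in turn scaled fragments gave 166, 148 and 185 genes with 9, 8 and 9 partners, and without stimulated replicates 1, 2 and 3 they gave 138, 143 and 202 genes with 6, 7 and 10 partners. Both Icam1 and Sdc4 passed in 5 of these 6, and 1 of them, Icam1, without stimulated replicate 2. With the replicate block they gave 195 genes, 2 of the 9 and 12 partners, and with a pseudocount of 1, 246 genes, 2 of the 9 and 12 partners. From reference transcripts only they gave 12 genes, 0 of the 9 genes and 0 partners. The cause of these shifts was not tested. The block was not used as the main choice because neither the labels nor the methods pair the cultures. In a separate check, libraries with the same number did not deviate together (r of -0.018, -0.0024 and 0.0099). Icam2, Vcam1, Pecam1 and F11r rested on 17 fragments or fewer in each group, which limits their precision.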
